A study of Homo sapiens with 8 samples.

Results

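The early response of NB4 cells to chlorprothixene was read from 2 of the 8 RNA-seq libraries of the series: NB4 cells that received no treatment, and NB4 cells after 6 h with 40 uM chlorprothixene. Genes were kept where the level reached 5 TPM (an abundance scaled for length and for the library total) in either library, and were ranked by log2((TPM + 1) at 6 h / (TPM + 1) untreated), called the log2 difference below. Of 55765 gene names, 10678 reached that level, and 8 of these were listed at 0 in 1 library and are given apart, which left 10670 genes. Chlorprothixene is a tricyclic antipsychotic of the thioxanthene class, an antagonist of several amine receptors. NB4 is an established human line of acute promyelocytic leukaemia that carries PML-RARA, a fusion of a nuclear body protein with the retinoic acid receptor alpha. The series also holds NB4 at 12 and 24 h of the same dose and Kasumi-1, a line with the RUNX1-RUNX1T1 fusion, untreated and at 6, 12 and 24 h. Both lines grew in medium with fetal bovine serum, there is 1 library for each line and time, and no vehicle is named. With 1 library per condition there is no spread between cultures and no test, so a gene is counted as higher or lower when its log2 difference reached 1 in size, that is 2-fold on the TPM + 1 scale. The untreated library is not matched to 6 h in culture, so the drug and the time in culture cannot be told apart. In a bulk culture, fewer cells of a type and less RNA per cell cannot be told apart either.

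Several inducible programmes are known to act within hours in myeloid cells. NF-kB dimers are held in the cytoplasm by IkB proteins, and once released they bind kappa B sequences and raise the transcription of chemokines, adhesion molecules and of the IkB proteins and A20, which shut the pathway off again. Cholesterol synthesis is controlled by SREBP-2, which SCAP carries from the endoplasmic reticulum to the Golgi when membrane sterol is low, while the LXR receptors, which bind oxysterols, drive the export pump ABCA1. Heat shock factor raises cytosolic chaperones when unfolded protein accumulates.

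The inferred depth was alike, at 30.4 in the untreated and 29.3 in the 6 h library, in units of 1e6 read pairs. At 5 TPM a transcript of 1 kb then rests on 64 pairs (95% exact Poisson interval 49.3 to 81.7) and 60 pairs (45.8 to 77.2), which covers counting error only, and 3 pairs on such a transcript correspond to 0.2353 and 0.2496 TPM. Mitochondrially encoded genes took 6.71% of the TPM untreated and 5.04% at 6 h. Of 9 myeloid markers, 8 were at 1 TPM or more in both libraries, with a summed level of 7073 TPM untreated and 4704 TPM at 6 h, and the ninth, ELANE, was at 0.759 and 0.626 TPM. RUNX1T1, KIT and CD34, which mark Kasumi-1, were all under 1 TPM (summed level 0.0875 and 0.340 TPM), and the erythroid and fibroblast markers summed to at most 0.035 TPM. Some markers of other lineages were present: EPCAM was at 20.6 and 18.5 TPM, and NCAM1 at 11.1 and 5.31 TPM.

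Most genes had similar levels in both libraries. The median log2 difference over the 10670 genes was -0.02, the quartiles were -0.26 and 0.24, and the 1st and 99th percentiles were -1.29 and 1.84. At least 2-fold higher were 340 genes (3.19%), and at least 2-fold lower were 245 genes (2.3%). At these shares a short list of genes holds few calls or none, which limits what low counts in the lists below can show. The upper tail reached further: 92 genes were at least 4-fold higher and 20 at least 4-fold lower, and 25 and 4 passed 8-fold. The higher genes together took 1.35% of all TPM untreated and 4.05% at 6 h, while the lower genes took 1.39% and 0.495%. The higher set had a median of 8.07 TPM untreated and 25.8 TPM at 6 h, and 28 of its genes were under 1 TPM untreated. These 28 are all the kept genes under 1 TPM untreated. Such a gene is kept only if it reaches 5 TPM at 6 h, so its call as higher follows from the filter. The same holds for the 8 kept genes under 1 TPM at 6 h, all of them called lower. With the pseudocount of 1, it holds for any kept gene at up to 2 TPM in 1 of the libraries. Among 9519 protein-coding genes 289 (3.04%) were higher and 175 (1.84%) lower, whereas among 393 long noncoding genes 11 (2.80%) were higher and 36 (9.16%) lower. Small RNA genes passed 2-fold in 18 cases upward and 14 downward of 107, and reads of such short genes may belong to the host genes around them. Calls as lower were also more frequent at low levels. They were 5.25% of genes whose higher level was 5 to 10 TPM and 1.10% of those at 100 TPM or more. Gene classes were not compared at like levels, and the difference in calls between them was not tested.

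**Figure D1:**
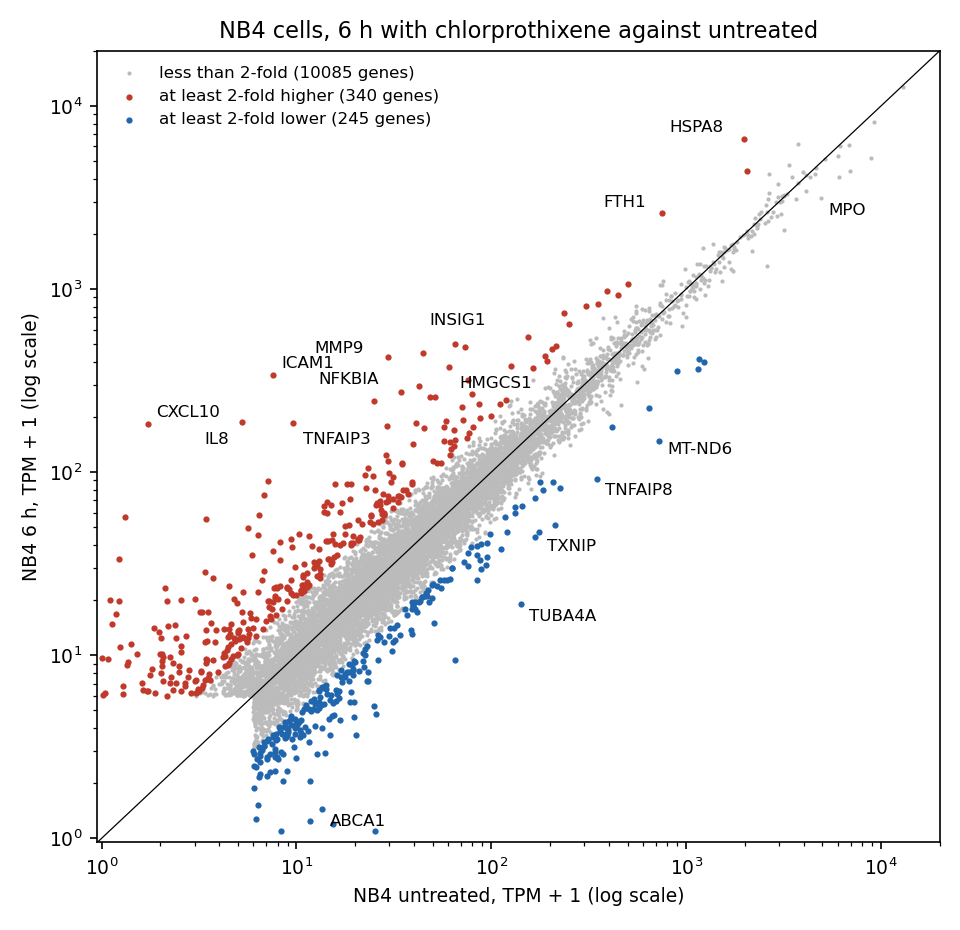
Each point is 1 of the 10670 genes, with the untreated NB4 level on the horizontal axis and the 6 h level on the vertical axis, both as TPM + 1 on log scales. The 340 higher genes (red) include CXCL10, ICAM1 and IL8 far above the diagonal, and the 245 lower genes (blue) include ABCA1, TUBA4A and TXNIP.

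Chemokine genes held the largest differences. CXCL10, a ligand of the receptor CXCR3 (hg19 chr4:76942273-76944650, minus strand), was at 0.731 TPM untreated and 183 TPM at 6 h, a log2 difference of 6.73, the largest of all genes kept. IL8 (CXCL8), which draws neutrophils (chr4:74606223-74609433), went from 4.24 to 188 TPM (5.17), and CCL3, a ligand of CCR1, from 0.312 to 56.1 TPM (5.44). CCL2, the main monocyte attractant, stood at 0.102 TPM untreated, under the level of 3 pairs on 1 kb, and at 19.0 TPM at 6 h. CCL20, the ligand of CCR6, went from 4.93 to 34.2 TPM (2.57), IL1B from 0.284 to 5.16 TPM (2.26), and CCL5, already abundant, from 118 to 247 TPM (1.05). Of 32 chemokine and cytokine genes listed, 13 were kept, and 10 of them were higher and 0 lower, with a median log2 difference of 2.57 beside -0.02 over all genes. A member passes the level of 5 TPM more readily when it is high at 6 h, so neither the count nor the median stands for the whole list: 18 members stayed under it in both libraries, and the median was 1.94 with 1 TPM required and 0.92 with no filter. TNF and LTB were listed at 0 in all 8 libraries, and IL6 and CXCL1 at 0 in all 4 NB4 libraries, and a failed estimate and absence cannot be told apart at 0. CCL4, the neighbour of CCL3, was listed at 0 untreated and was at 27.95 TPM at 6 h, so no fold is given. CCL3L1 (2.42 and 54.8 TPM), CCL3L3 (1.01 and 7.02 TPM) and CCL4L2 (0.422 and 10.6 TPM) are near-identical copies of CCL3 and CCL4, and how reads were divided among them is uncertain.

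Genes of the NF-kB system itself were higher nearly throughout the list. Of its 20 members 17 were kept, 13 were higher, 0 lower, all 17 lay above 0, and the median was 1.57. Among the subunits, NFKB2, the precursor of p52, went from 41.5 to 293 TPM (2.79), RELB, its usual partner, from 13.4 to 58.8 TPM (2.05), and NFKB1, the precursor of p50, from 56.5 to 148 TPM (1.37). RELA, the p65 subunit, was at 46.6 and 52.8 TPM (0.18), the least different of these subunits. Among the inhibitors, TNFAIP3, which encodes the ubiquitin-editing enzyme A20, was at 8.58 TPM untreated and 184 TPM at 6 h (4.27). NFKBIA, which encodes IkB-alpha, was at 33.5 and 272 TPM (2.99), NFKBIE at 27.7 and 124 TPM (2.12), and BCL3, a nuclear IkB protein, at 1.72 and 11.7 TPM (2.22). ZC3H12A, a ribonuclease that degrades cytokine mRNAs, was at 7.25 and 40.7 TPM (2.34), and CYLD, a deubiquitinase, at 13.2 and 41.1 TPM (1.57). IRAK2, a kinase of the Toll-like receptor pathway, was at 1.02 and 11.5 TPM (2.63), and 3 of 13 kept chemoattractant and pattern receptor genes were higher, the others being C3AR1 (29.6 and 87.6 TPM) and CLEC4E (5.02 and 13.1 TPM).

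Outside the list, genes with the same direction included ICAM1, the endothelial and leukocyte ligand of LFA-1 (chr19:10381511-10397291). It was at 6.58 TPM untreated and 340 TPM at 6 h (5.49), while 10 of the 11 integrin and ICAM genes kept differed by less than 2-fold, among them ITGAM (8.27 and 12.1 TPM) and ITGB2 (77.6 and 91.5 TPM). EBI3, a subunit of interleukin-27, was at 1.11 and 22.4 TPM (3.47), RGS16, which speeds the switching off of G proteins, at 24.0 and 245 TPM (3.29), and TNFRSF9, the receptor 4-1BB, at 0.0816 and 8.52 TPM (3.14). The dystroglycan gene DAG1 was at 2.41 and 27.4 TPM (3.06). Other higher genes, chosen after their values were seen, were TNFAIP2 (13.3 and 68.1 TPM), TNFAIP6 (0.986 and 9.11 TPM), CD83 (14.03 and 65.0 TPM), PTX3 (2.51 and 16.3 TPM) and CD70 (57.4 and 189 TPM).

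The promoters of several of these genes hold the kappa B letters GGAANNTCC (searched on both strands) within the 250 bases before the start annotated by RefSeq. The windows below are shown for ICAM1 and for subunits, inhibitors and chemokines described above, and REL, another subunit gene, was at 3.48 and 8.11 TPM (1.02). Each is from GRCh38.p14, reads 5′ to 3′ on the strand of the gene, and has the matching bases in capitals.
ICAM1: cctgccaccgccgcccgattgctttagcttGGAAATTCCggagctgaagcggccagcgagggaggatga
CXCL10: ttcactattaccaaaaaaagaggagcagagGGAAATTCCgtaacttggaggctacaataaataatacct
IL8: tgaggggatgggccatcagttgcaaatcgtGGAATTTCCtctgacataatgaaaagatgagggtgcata
TNFAIP3: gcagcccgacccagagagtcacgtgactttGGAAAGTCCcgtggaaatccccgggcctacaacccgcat
NFKBIA: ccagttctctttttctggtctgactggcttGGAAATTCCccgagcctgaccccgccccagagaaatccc
NFKB1: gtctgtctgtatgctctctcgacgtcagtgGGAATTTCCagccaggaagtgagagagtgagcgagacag
REL: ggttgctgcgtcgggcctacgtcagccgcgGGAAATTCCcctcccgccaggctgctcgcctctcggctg

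These lie at chr19:10270904-10270972 (plus strand) for ICAM1, chr4:76023635-76023703 (minus) for CXCL10, chr4:73740448-73740516 (plus) for IL8 and chr6:137867162-137867230 (plus) for TNFAIP3. Those of NFKBIA, NFKB1 and REL are chr14:35404792-35404860 (minus), chr4:102501281-102501349 (plus) and chr2:60881498-60881566 (plus). The first matching base is 186 bases before the start in ICAM1, 176 in CXCL10, 91 in IL8, 81 in NFKBIA, 67 in TNFAIP3, 48 in NFKB1 and 46 in REL. NFKBIA holds another match 242 bases before its start. Of the 23 higher genes of the NF-kB and chemokine lists, 17 had a promoter in the table and 7 of these held a match: CXCL10, IL8, NFKB1, NFKBIA, NFKBIZ, REL and TNFAIP3. ICAM1 is in neither list, and the window of NFKBIZ is not shown. Over all members of these lists, higher or not, 12 of 39 promoters held a match, among them those of CXCL1, CXCL2, CXCL3, IL6 and LTB. Of kept members that were not higher, 0 of 6 promoters did. In all, 3.88% of the 27305 promoters in the table hold a match. Promoters were found for 8254 of the 10670 genes kept (77.4%) and 237 of the 340 higher genes, under the 80% needed, so a comparison of shares is void, and a match is a description of letters and not of binding.

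In the later NB4 libraries, which are set beside the same untreated library, the chemokine levels parted. CXCL10 was at 245 TPM at 12 h and 122 TPM at 24 h, IL8 at 277 and 134 TPM, and NFKBIA at 225 and 165 TPM. CCL3 stood at 104 and 167 TPM, CCL3L1 at 83.2 and 208 TPM, and CCL5 at 283 and 466 TPM, each highest at 24 h. NFKB2 (288 and 270 TPM) and TNFAIP3 (185 and 197 TPM) kept a level near that of 6 h. NFKBIA and RELB (51.4 and 41.6 TPM) were highest at 6 h.

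**Figure D2:**
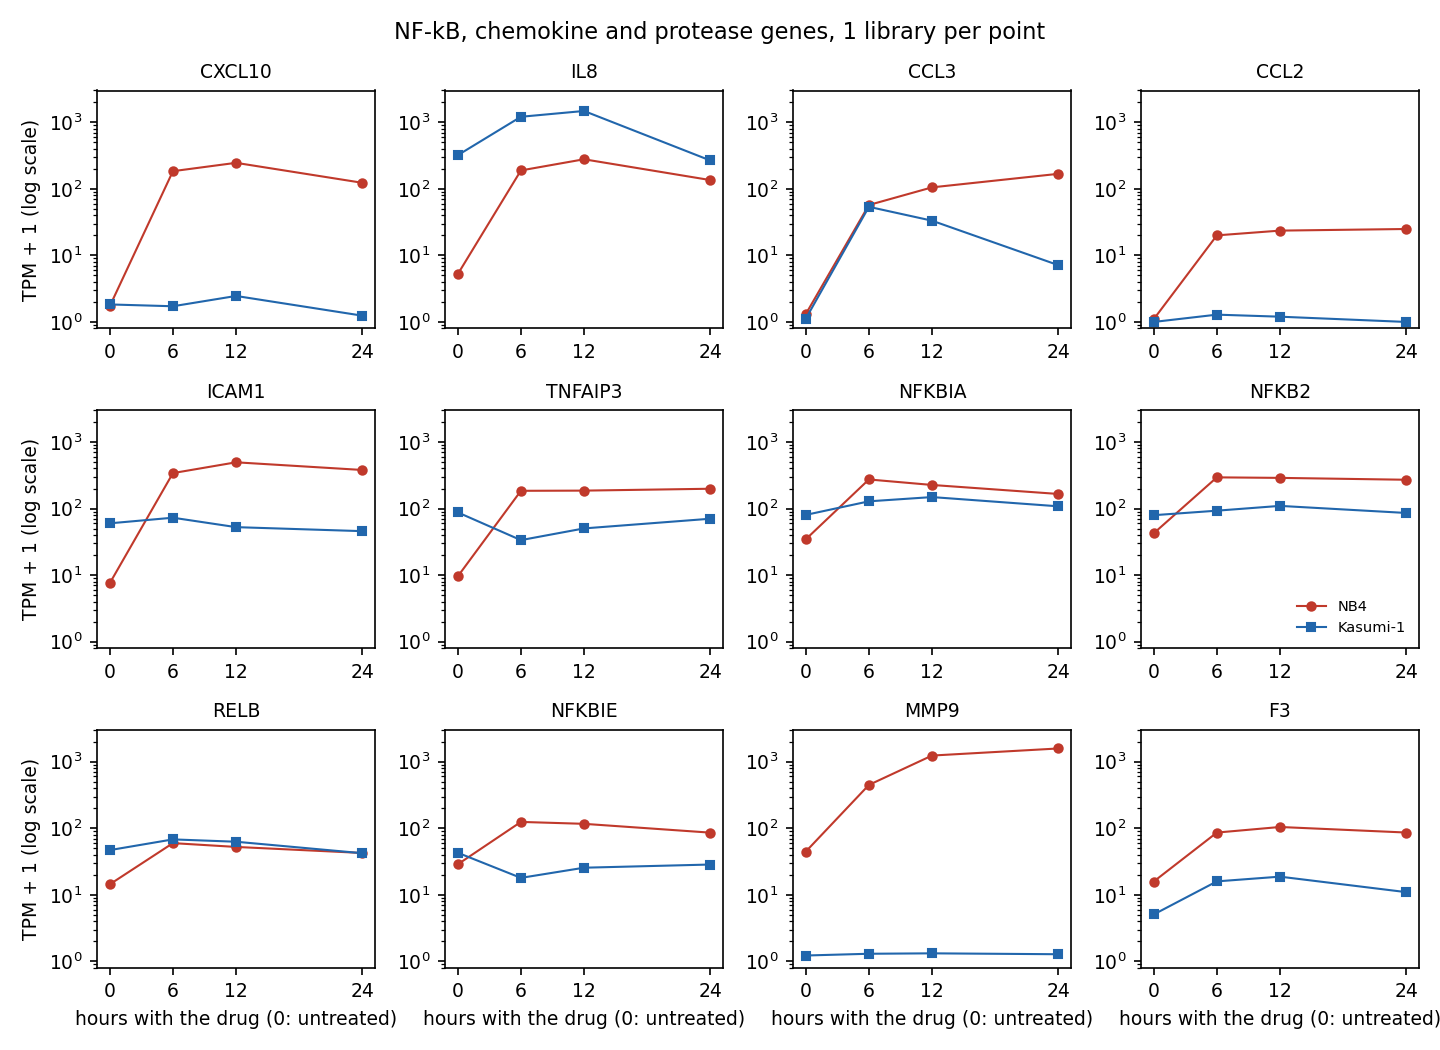
TPM + 1 on a log axis is plotted against hours with the drug for 12 genes, with NB4 as red circles and Kasumi-1 as blue squares, 1 library per point and lines joining the points of a line. ICAM1, TNFAIP3 and NFKB2 in NB4 reach at 6 h the range they hold at 12 and 24 h, MMP9 goes on to 1579 TPM at 24 h, and CXCL10 and MMP9 stay near 0 in Kasumi-1.

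Genes of clotting, fibrinolysis and matrix breakdown formed another group with high levels. All 14 kept of 21 listed lay above 0, 7 were higher and 0 lower, with a median of 0.93. MMP9, a gelatinase stored in neutrophil granules (chr20:44637547-44645200), was at 43.6 TPM untreated and 447 TPM at 6 h (3.33), and at 1236 and 1579 TPM later. F3, which encodes tissue factor, the trigger of clotting, was at 14.9 and 85.1 TPM (2.44). THBS1, which encodes thrombospondin, was at 1.17 and 18.7 TPM (3.18). PLAU, the urokinase gene, was at 20.8 and 51.3 TPM (1.26) and its receptor PLAUR at 23.2 and 56.6 TPM (1.25), and at 24 h they stood at 98.5 and 147 TPM. TIMP1, an inhibitor of matrix proteases, was at 109 and 133 TPM (0.28).

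Among immediate early transcription factors 11 of the 23 kept were higher and 1 lower, with a median of 0.97. The AP-1 members FOSL1 (17.2 and 85.2 TPM), JUNB (78.2 and 266 TPM), JUND (33.7 and 111 TPM) and JUN (10.3 and 27.2 TPM) were all higher. FOS was at 7.45 and 14.1 TPM (0.84) and ATF3, a common stress marker, at 22.1 and 20.02 TPM (-0.14). NR4A1, an orphan nuclear receptor, was at 4.35 and 21.1 TPM (2.05), KLF2 at 1.04 and 7.74 TPM (2.10), EGR1 at 14.4 and 44.8 TPM (1.58), and BATF, a partner of JUN proteins, was lower at 12.5 and 5.68 TPM (-1.02). Of the phosphatases that damp MAP kinases, DUSP2 went from 24.3 to 78.4 TPM, DUSP4 from 6.21 to 18.7 TPM and DUSP5 from 2.002 to 6.21 TPM, while DUSP6, a marker of ERK output, was at 63.0 and 60.0 TPM (-0.07). In this list of MAP kinase feedback genes 3 of 13 were higher and 0 lower, with a median of 0.71.

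Most cholesterol synthesis genes were higher. From acetoacetyl-CoA to squalene epoxidation, counting SREBF2, 9 of 11 genes were higher and 0 lower (median 1.95), and after squalene 7 of the 10 kept were higher and 0 lower (median 1.61). HMGCS1, the first committed step, was at 59.5 and 374 TPM (2.63). MVK (22.4 and 104 TPM), MVD (28.6 and 114 TPM), IDI1 (40.0 and 185 TPM) and SQLE (44.4 and 174 TPM) were among them. The exceptions were PMVK, which acts between MVK and MVD, at 40.6 and 34.02 TPM (-0.25), and SREBF2, which encodes SREBP-2 itself, at 96.0 and 133 TPM (0.47). Among the later enzymes MSMO1 (28.3 and 177 TPM, 2.61), SC5D (12.8 and 64.6 TPM, 2.25) and HSD17B7 (16.04 and 67.2 TPM) led, while EBP was at 117 and 98.6 TPM (-0.25) and LBR at 155 and 195 TPM (0.33). CYP51A1, the demethylase that acts on lanosterol, was at 0.211 and 0.220 TPM in NB4 and at 95.8 TPM in untreated Kasumi-1, so it was not kept in NB4, and a failed estimate and an absent transcript cannot be told apart from these values. Summed over members, the first list went from 829 to 2450 TPM and the second from 717 to 1818 TPM.

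Sterol sensing and uptake genes differed in both directions. INSIG1, which retains SCAP in the endoplasmic reticulum and is a classic SREBP target (chr7:155089486-155101945), was at 63.9 and 501 TPM (2.95). STARD4, a cytosolic sterol carrier, was at 12.8 and 59.6 TPM (2.13). MYLIP, an LXR target that encodes a ubiquitin ligase, was lower at 30.3 and 10.8 TPM (-1.40), and ABCA1, the cholesterol export pump and another LXR target (chr9:107543283-107690518), was at 12.5 TPM untreated and 0.438 TPM at 6 h (-3.23). ABCA1 stayed at 0.619 and 0.595 TPM later. The LXR genes themselves were at 15.8 and 16.7 TPM (NR1H3) and 68.9 and 60.7 TPM (NR1H2), and SREBF1, also an LXR target, at 101 and 63.5 TPM (-0.67). In the list of cholesterol efflux and LXR targets 5 of 10 genes were kept, with 0 higher, 2 lower (ABCA1 and MYLIP) and a median of -0.18. LPCAT3, another member of that list, was at 56.6 and 50.5 TPM (-0.16). Fatty acid synthesis had 7 of 14 higher and 0 lower (median 0.89), among them FASN (235 and 737 TPM), ACSS2 (17.7 and 50.5 TPM), FADS2 (305 and 807 TPM) and ME1 (15.8 and 59.4 TPM). At 12 and 24 h HMGCS1 stood at 473 and 658 TPM, and SQLE at 233 and 349 TPM, both highest at 24 h. The sterol element letters TCACNCCAC (both strands) were in 0 of the 15 promoters matched among the 21 higher genes of these 3 cholesterol lists and in 0.875% of all promoters, and with under 80% matched this share is void too.

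**Figure D3:**
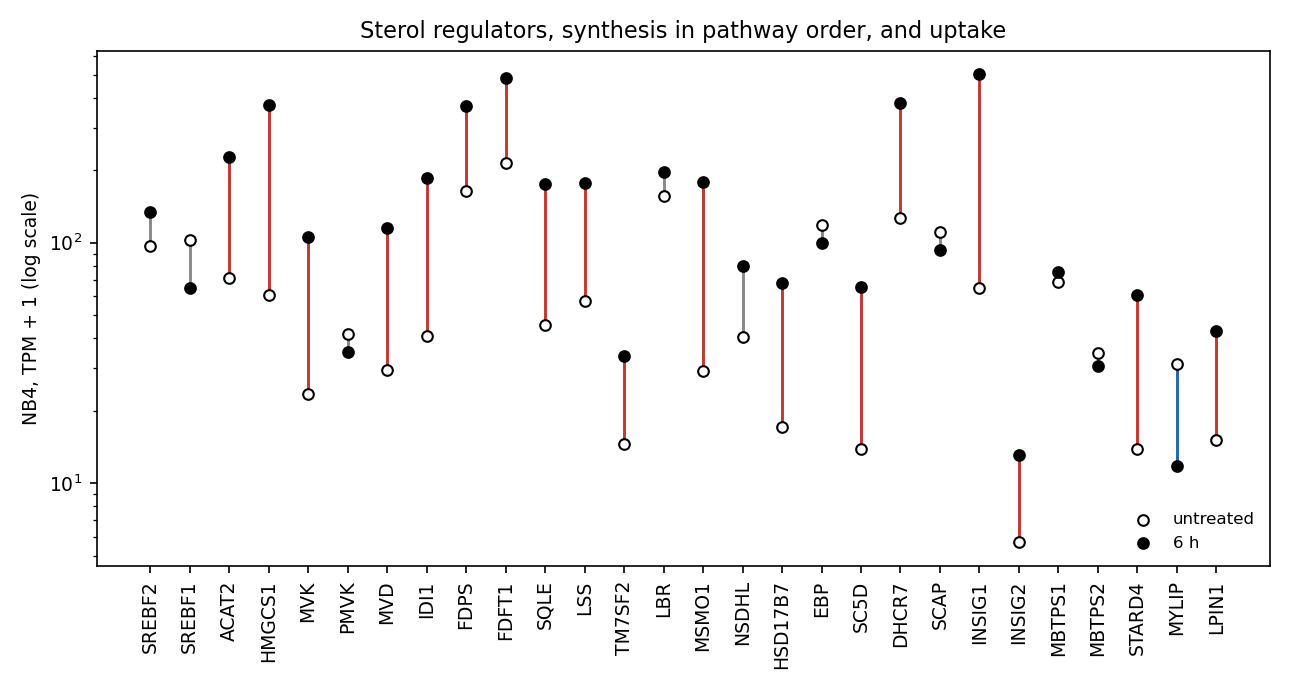
For the 2 SREBP genes, synthesis enzymes in pathway order and genes of uptake and control (those reported here), open circles give the untreated and filled circles the 6 h level in NB4 as TPM + 1 on a log axis. Red lines join genes at least 2-fold higher, blue lines genes at least 2-fold lower and grey lines the rest, and the filled circle is the lower of the pair in SREBF1, PMVK, EBP, SCAP, MBTPS2 and MYLIP.

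The lysosome, where sterol from lipoproteins is released and where cationic amphiphilic drugs accumulate, showed no 2-fold difference in its gene lists. Over all genes kept 3.19% were higher and 2.3% lower, so counts of 0 in lists of this size are near those shares. Of 33 hydrolase, membrane protein and V-ATPase genes 0 were higher and 0 lower (median -0.07), and of 13 lipid handling genes 0 and 0 (median 0.14), with NPC1 at 20.02 and 29.1 TPM (0.52) and LIPA, the acid lipase, at 36.7 and 43.3 TPM (0.23). Among 25 autophagy genes only SQSTM1, which encodes the receptor p62, passed 2-fold, at 74.8 and 315 TPM (2.06), and its level was 489.8 and 555 TPM later. TFE3, a master factor of lysosomal genes, was at 27.8 and 55.7 TPM (0.98). SQSTM1 is also a member of the NF-kB list.

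Cytosolic chaperones included the largest difference in absolute level. HSPA8, the constitutive Hsc70, was at 1986 TPM untreated and 6627 TPM at 6 h (1.74), the largest TPM gain of any gene, and HSP90AA1, the inducible form of Hsp90, at 2055 and 4381 TPM (1.09). The co-chaperones DNAJB1 (47.2 and 257 TPM, 2.42), BAG3 (33.7 and 110.4 TPM), HSPH1 (249 and 644 TPM) and DNAJA1 (353 and 830.5 TPM) were higher too. The stress-inducible Hsp70 genes had the largest log2 differences of the list from low levels, HSPA1B at 1.57 and 19.0 TPM (2.96) and HSPA1A at 0.977 and 12.3 TPM (2.75), and these are near-identical genes whose reads may be divided between them. In all 9 of 21 were higher and 0 lower (median 0.62), while the mitochondrial chaperones HSPD1 (1759 and 1647 TPM) and HSPA9 (865 and 806 TPM) were not. HSF1, the heat shock factor gene itself, was at 99.4 and 88.3 TPM (-0.17). HSPA8 was at 4557 and 3180 TPM at 12 and 24 h and DNAJB1 at 148 and 102 TPM, so 6 h held the highest level of both. The heat shock element (both strands) was found in 2 of the 9 promoters of the higher chaperones, DNAJB6 and HSPA8, all 9 being matched, and in 1 of the 10 matched promoters of the other chaperones kept, CHORDC1. Over all promoters it was in 0.439%, and with 77.4% of the genes kept matched a comparison of shares is void. The HSPA8 window, shown because this gene had the largest TPM difference, lies at chr11:123062149-123062221 (GRCh38.p14, minus strand), and its element, in capitals, starts 55 bases before the RefSeq start. Another element, not shown, starts 230 bases before it.
HSPA8: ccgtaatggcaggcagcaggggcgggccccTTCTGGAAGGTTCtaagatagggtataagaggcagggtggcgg

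Endoplasmic reticulum and integrated stress genes differed less. HSPA5, the chaperone BiP, was at 390.4 and 969 TPM (1.31) and MANF at 98.7 and 201 TPM (1.02), the 2 of 25 that passed 2-fold, with 23 of 25 above 0 and a median of 0.32. The factors of the integrated stress response had a median of 0.03, with 2 higher and 1 lower of 18: DDIT3, which encodes CHOP, was at 62.7 and 48.1 TPM (-0.38), TRIB3 at 167 and 167 TPM, ATF4 at 549 and 810 TPM (0.56) and DDIT4, an inhibitor of mTORC1, at 193 and 403 TPM (1.06). Aminoacyl-tRNA synthetases, common ATF4 targets, had 0 higher and 1 lower of 20 (VARS, 7.70 and 2.55 TPM, in the major histocompatibility region where many genes have alternative copies) and a median of -0.07. Of the NRF2 targets 2 of 16 were higher, ME1 and GCLM (17.9 and 38.9 TPM), while NQO1 was at 27.9 and 45.2 TPM (0.68) and SRXN1 at 41.2 and 51.3 TPM. The ferritin heavy chain FTH1, which stores iron, was at 751 and 2585 TPM (1.78) and the light chain FTL at 2651 and 4255 TPM (0.68), and the iron exporter SLC40A1 was lower at 8.85 and 3.03 TPM. The metallothioneins MT1X (63.1 and 138 TPM) and MT1F (14.2 and 31.1 TPM) were higher.

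Of the BCL2 family, 2 of 6 BH3-only genes (median 0.58) and 2 of 7 multidomain genes (median 0.03) were higher and 0 lower. Of the BH3-only killers, BBC3, which encodes PUMA, was at 21.4 and 95.6 TPM (2.11) and BMF at 3.50 and 13.0 TPM (1.63), while BCL2L11, which encodes BIM and is a FOXO target, was at 14.9 and 14.9 TPM. Of the survival genes, BCL2A1, an NF-kB target, was at 4.78 and 16.0 TPM (1.55), BCL2L2 at 11.4 and 28.99 TPM (1.28), and MCL1 at 110.3 and 200.3 TPM (0.86). Reads of BCL2L2 can also belong to the read-through gene BCL2L2-PABPN1 (5.06 and 4.58 TPM). Of 15 death receptor and caspase control genes 0 passed 2-fold, with TNFRSF10B, which encodes DR5, at 39.5 and 65.3 TPM (0.71). Among p53 targets CDKN1A, the p21 cell cycle inhibitor (0.344 and 7.88 TPM, 2.72), and BTG2 (0.606 and 6.03 TPM, 2.13) were the 2 higher of 16, while MDM2 was at 23.3 and 19.3 TPM (-0.26) and the list median was 0.00. CDKN1A and BTG2 were kept only through their 6 h levels, so their calls as higher follow from the filter.

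FOXO factors and targets had 0 higher and 2 lower of 16, with a median of -0.16. TXNIP, which inhibits thioredoxin and glucose uptake (chr1:145438469-145442635), was at 174 and 45.8 TPM (-1.90), and its relative ARRDC4 at 14.5 and 3.73 TPM (-1.72). The sugar transporters SLC2A6 (5.41 and 57.1 TPM, 3.18) and SLC2A3 (35.4 and 79.0 TPM, 1.14) were higher, and SLC2A1 was at 105 and 100.2 TPM. SESN3 was at 38.2 and 17.0 TPM (-1.12), FOXO3 at 11.03 and 9.20 TPM (-0.24) and CAT, which encodes catalase, at 155 and 90.4 TPM (-0.77).

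Growth and cell cycle genes showed a mixed picture. MYC was at 86.2 and 32.2 TPM (-1.39), and of its network MXI1 was lower (53.6 and 24.6 TPM, -1.09) and MXD1 higher (9.78 and 23.3 TPM, 1.17). Ribosome biogenesis genes, grouped with MYC in a list of 32, had a median of -0.11 and 7 above 0. CCND1, the cyclin D1 gene, was at 26.8 and 75.04 TPM (1.45). Of 35 DNA replication genes 0 passed 2-fold in either direction and 7 lay above 0 (median -0.21), with MCM5 the lowest (132 and 75.5 TPM, -0.80). Of 32 mitosis genes 0 passed 2-fold and 30 lay above 0 (median 0.26), among them MKI67 (63.3 and 92.6 TPM) and AURKA (115 and 189 TPM). Only 3 of 20 replication-dependent histone genes were kept, whose mRNAs mostly lack a poly(A) tail, with HIST1H2AC lower at 6.74 and 1.32 TPM. The 54 cytosolic ribosomal protein genes, the 47 mitochondrial ones and the 37 nuclear oxidative phosphorylation genes had 0 at 2-fold, with medians of -0.03, -0.08 and -0.06.

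Mitochondrially encoded mRNAs were lower as a group, with a median of -0.47 and 1 of 13 above 0. The largest differences were in MT-ND6, the only mRNA encoded on the light strand, at 721 and 147 TPM (-2.29), and MT-ND5, its neighbour on the other strand, at 1165 and 413 TPM (-1.49). MT-CO2 was at 8885 and 5192 TPM (-0.77), the largest TPM loss of any gene, and MT-ND2 at 3993 and 4366 TPM (0.13). MT-ND4L (6944 and 4404 TPM), MT-ND4 (6064 and 4113 TPM) and the ribosomal RNA MT-RNR2 (2610 and 1337 TPM) were next in TPM loss together with MPO. At 12 and 24 h MT-ND6 was at 261 and 229 TPM and MT-ND5 at 612 and 539 TPM, above their 6 h levels, while MT-CO2 was at 5040 and 4836 TPM, below its 6 h level. Without strand, reads of MT-ND5 and MT-ND6 where they meet cannot be assigned.

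Promyelocyte genes were lower in part. Of 15 primary granule genes 0 were higher and 5 lower, with a median of -0.64: the defensin genes DEFA4 (13.8 and 3.49 TPM), DEFA3 (10.4 and 2.83 TPM) and DEFA1 (10.1 and 3.05 TPM), of which the last 2 are near-identical, RNASE3 (15.9 and 6.62 TPM), and CEBPE (97.5 and 44.8 TPM, -1.11), which the list includes although it encodes a transcription factor of granulocyte maturation and no granule protein. CTSG, the cathepsin G gene, was just under 2-fold (464 and 232 TPM), and MPO, the myeloperoxidase gene, was at 4889 and 3140 TPM (-0.64). At 12 and 24 h CTSG was at 95.1 and 31.0 TPM, MPO at 2104 and 1528 TPM and PRTN3, another granule protease gene (1002 and 703 TPM at first), at 228 and 139.8 TPM. The summed level of the 9 myeloid markers given above moves with this group, since MPO holds most of it. Of the myeloid factors GFI1, a transcriptional repressor needed for granulocyte development, was at 177 and 86.9 TPM (-1.02), MYB at 375 and 221 TPM (-0.76), SPI1, which encodes PU.1, at 222 and 247 TPM (0.15) and CEBPA at 73.6 and 92.8 TPM (0.33). RARA was at 30.04 and 31.3 TPM and PML at 41.2 and 31.2 TPM, and these gene totals do not tell the fusion from the normal alleles. STRA6, a retinol transporter gene, was at 2.86 and 12.8 TPM (1.84).

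**Figure D4:**
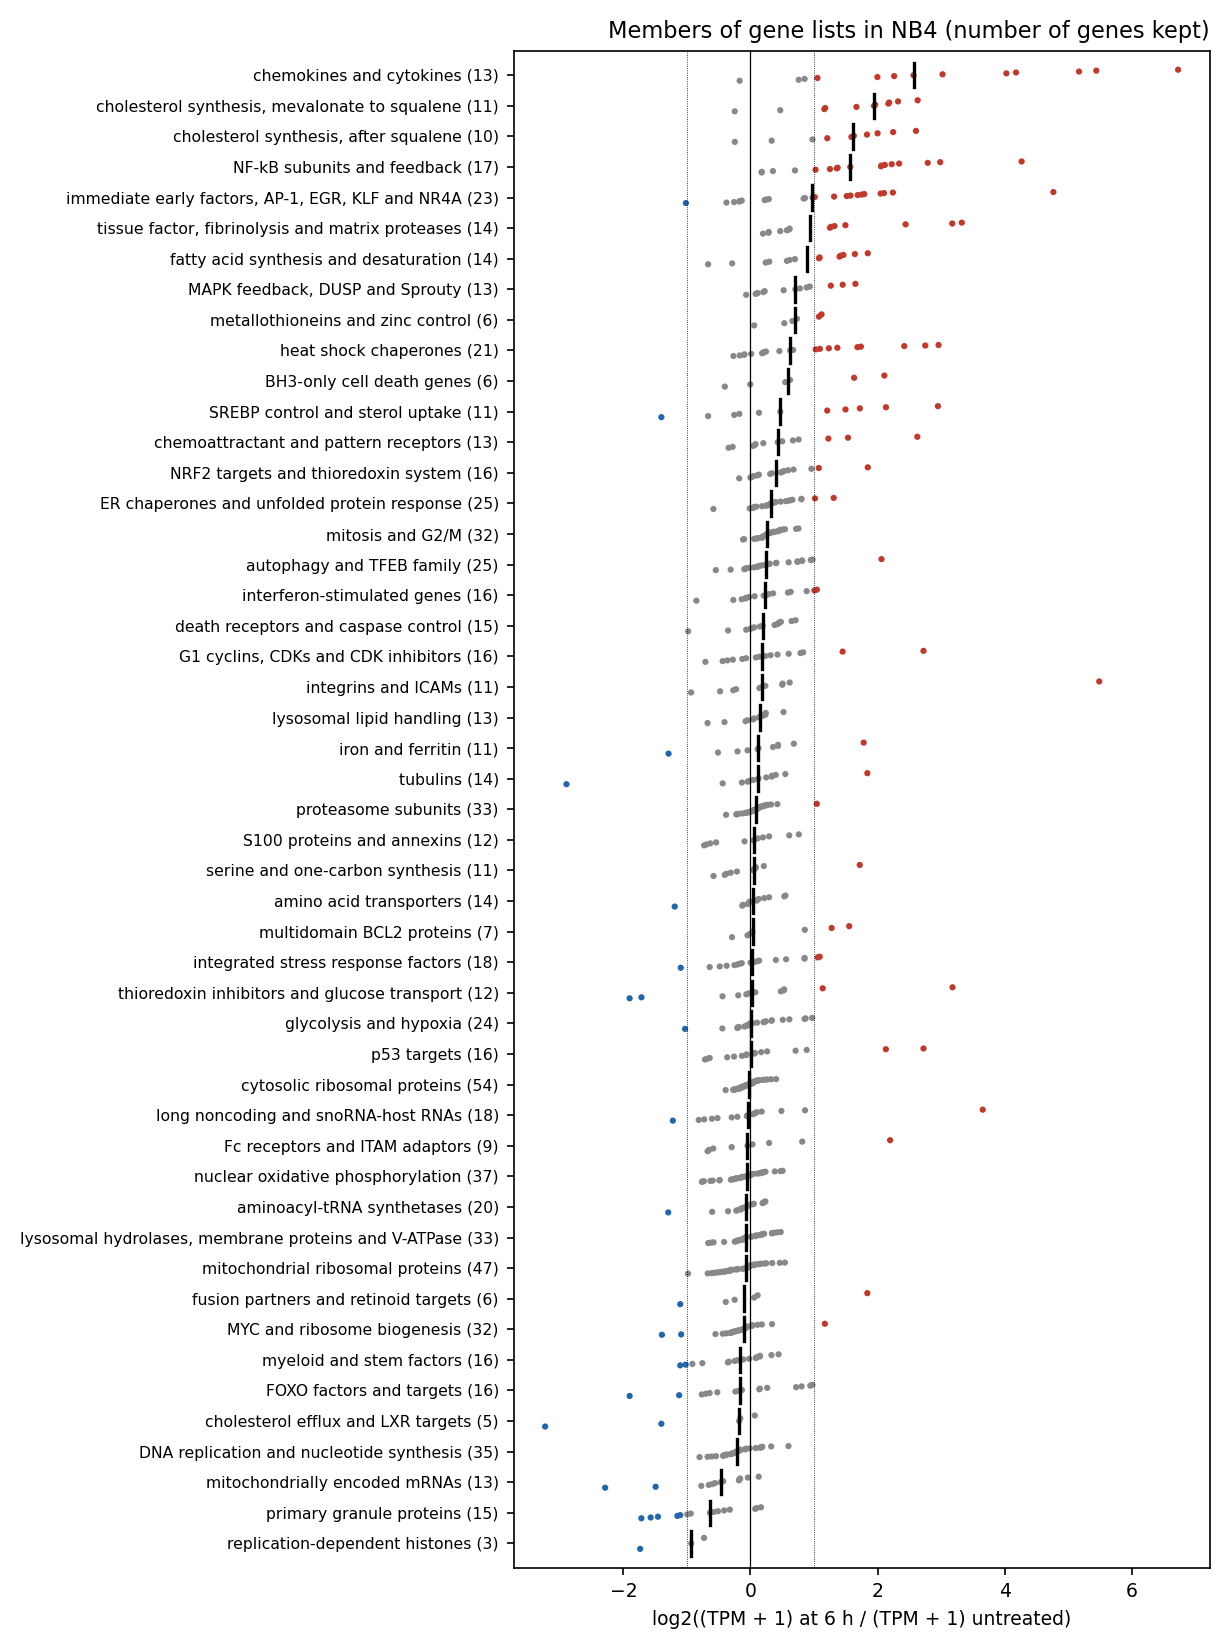
Each point is a kept gene of a list, placed by its log2 difference in NB4 at 6 h, and the black bar is the list median. Lists with at least 3 kept genes are shown and ordered by median, from 2.57 for chemokines and cytokines to -0.93 for histones. Red and blue points are at least 2-fold higher and lower.

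Among tubulin genes TUBA4A, an alpha tubulin gene, was at 141 and 18.1 TPM (-2.90), while TUBA1A, another alpha tubulin gene, was at 38.5 and 141 TPM (1.84) and the other 12 tubulin genes kept differed by less than 2-fold. Of all genes, 228 of the 340 higher and 221 of the 245 lower ones belonged to no list. TNFAIP8, an inhibitor of apoptosis induced by NF-kB, was at 346 and 91.0 TPM (-1.92), opposite in sign to the NF-kB genes above. SERPINB10, a serpin of myeloid precursors, was at 10.7 and 1.06 TPM (-2.51) and went on to 0.538 and 0.235 TPM. LILRA2, an activating leukocyte receptor, was at 18.8 and 4.53 TPM (-1.84) and C5AR2, a C5a receptor, at 7.97 and 1.32 TPM (-1.95). TMSB4X, which encodes the actin-binding thymosin beta-4, was at 3747 and 6188 TPM (0.72). Further protein-coding genes among the 20 lowest log2 differences were DHRS4L2 (13.0 and 1.91 TPM), GOLGA8G (24.1 and 4.28 TPM) and FAM86B2 (11.7 and 1.90 TPM). These have close relatives in the genome, and GOLGA8G was back at 27.2 TPM at 12 h. Smaller lists held few 2-fold differences. Of 16 interferon-stimulated genes 2 were higher, IFIH1 (12.2 and 25.5 TPM) and IFIT2 (2.32 and 5.85 TPM), with IRF1 at 11.6 and 14.4 TPM (0.29). Of 24 glycolysis and hypoxia genes 0 were higher and 1 lower, PDK1 (22.1 and 10.3 TPM), with the lactate exporter SLC16A3 at 233 and 426 TPM (0.87). Of 14 amino acid transporters 0 were higher and 1 lower, SLC43A1 (182 and 79.1 TPM). Among 9 Fc receptor and adaptor genes FCAR, the IgA receptor, was higher (0.826 and 7.38 TPM, 2.20), a call that follows from the filter. Of the receptors that chlorprothixene binds, 15 of 16 genes stayed under 5 TPM, and HRH1, the histamine H1 receptor gene, was at 0.359 TPM untreated, 8.21 TPM at 6 h, 1.42 TPM at 12 h and 10.1 TPM at 24 h. HRH1 was kept only through its 6 h level.

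Among long noncoding genes NEAT1, the scaffold of nuclear paraspeckles (chr11:65190245-65213011), was at 6.13 and 88.9 TPM (3.66), and its neighbour MALAT1 at 9.59 and 18.2 TPM (0.86). A locus that the files name MIR146A (chr5:159895275-159914433) was at 3.94 and 18.3 TPM (1.96), a value of the long host transcript and not of the mature miRNA. FAM201A (13.8 and 2.67 TPM) and the snoRNA host SNHG16 (94.6 and 40.0 TPM) were lower, and GAS5 was at 646 and 526 TPM (-0.30). The 3 long noncoding genes with the largest excess or deficit also include RP11-518L10.5, in ADSS on the same strand (0.133 and 13.9 TPM, and 0.0730 TPM at 12 h), and STAG3L5P-PVRIG2P-PILRB (17.9 and 4.53 TPM), which overlaps other genes as well.

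Some of the largest differences lie where genes overlap. Of the 20 protein-coding genes with the largest difference each way, 2 of the higher and 6 of the lower overlap another gene on the same strand, against 8.77% of all genes kept, 15.9% of the higher and 18.4% of the lower set. TOMM6, a mitochondrial import subunit gene, was at 28.6 and 425 TPM (3.85), and PRICKLE4, which spans it, at 64.3 and 8.44 TPM (-2.79). At 24 h TOMM6 stood at 15.7 TPM and PRICKLE4 at 64.9 TPM. UPK3BL (4.67 and 48.4 TPM) and POLR2J2 (49.6 and 13.95 TPM) overlap as well, and PTGES3L-AARSD1, at 24.3 and 0.102 TPM (-4.52), is a read-through that holds AARSD1 (47.1 and 57.5 TPM). How reads were divided between the names was not tested. Of the 8 genes listed at 0 in 1 library, 5 reached 10 TPM in the other: PPAN-P2RY11 (0 and 82.4 TPM), LUC7L2 (0 and 15.6 TPM) and RP11-61A14.2 (0 and 12.2 TPM) untreated, RP11-399J13.3 (10.9 and 0 TPM) at 6 h, and CCL4 as given above, and all but CCL4 overlap another gene on the same strand. RPS18, at 212 and 50.5 TPM (-2.05), lies in the major histocompatibility region and is a cytosolic ribosomal protein gene outside the list used above.

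Kasumi-1 at the same dose and time was set beside NB4, and the 2 comparisons share no library. There 11317 genes reached 5 TPM, of which 6.26% were at least 2-fold higher and 3.38% at least 2-fold lower. Of the 340 higher NB4 genes 109 (32.1%) were also at least 2-fold higher in Kasumi-1, which is 21.3% of the 511 such genes in Kasumi-1 among the 10670. Of the 245 lower NB4 genes 37 (15.1%) were also lower, which is 13.5% of 275. These shares stand beside 4.79% higher and 2.58% lower among all 10670 genes in Kasumi-1, and no test of the difference is possible with 1 library each. With 5 TPM required in each line the shared genes were 100 of 274 higher and 35 of 166 lower. The shared genes with the largest smaller of the 2 differences were CCL3, CCL3L1, AC020663.1 (in GLYR1, 5.78 and 74.3 TPM in NB4), SNORD14C (in HSPA8, 0.0101 and 8.61 TPM) and CCL4L2 on the higher side. On the lower side they were SNORA77 (10.8 and 0.249 TPM), DUXAP10 (7.57 and 1.06 TPM), ARRDC4, SCARNA12 (9.87 and 2.69 TPM) and AE000661.37 (6.90 and 1.77 TPM). Among shared genes with known roles, higher ones included CCL3 (0.119 and 52.6 TPM in Kasumi-1), EMP1 (0.173 and 21.1 TPM), BBC3 (2.91 and 30.3 TPM) and INSIG1 (94.9 and 312 TPM), and lower ones included TXNIP (341 and 144 TPM) and ARRDC4 (15.3 and 3.89 TPM).

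The NF-kB list had quite different values in the 2 lines. Of its 17 genes kept in NB4, 13 were higher there, and in Kasumi-1 3 were higher and 2 lower, with medians of 1.57 and 0.10. All list values of Kasumi-1 given here cover the members kept in NB4, with no level required in Kasumi-1. A member passes that filter more readily when it is high in NB4 at 6 h, so the lines are not compared on like terms. CYP51A1, which was not kept in NB4, is left out. TNFAIP3 in Kasumi-1 was at 86.5 TPM untreated, 32.5 TPM at 6 h and 69.3 TPM at 24 h, and NFKBIE at 41.8 and 17.0 TPM at 0 and 6 h. Untreated Kasumi-1 was thus at 86.5 TPM of TNFAIP3 and 59.0 TPM of ICAM1 where untreated NB4 was at 8.58 and 6.58 TPM, and ICAM1 was at 71.8 TPM in Kasumi-1 at 6 h. CXCL10 was at 0.832 and 0.720 TPM in Kasumi-1 and MMP9 at 0.225 and 0.302 TPM. Cholesterol synthesis was higher in Kasumi-1 in fewer genes, 2 of 11 up to squalene (median 0.40) and 1 of 10 after it (median 0.40), and HMGCS1 differed there by 0.65 and MVK by -0.60. Heat shock chaperones had 3 higher there (median 0.02), and integrated stress factors 5 higher and 0 lower (median 0.86) against 2 and 1 in NB4. Of the 23 immediate early factors kept, 11 were higher in NB4 (median 0.97) and 13 in Kasumi-1 (median 1.76). S100 and annexin genes had 8 of 12 higher in Kasumi-1 (median 1.33) and 0 in NB4 (median 0.06). The lower NB4 genes farthest from their Kasumi-1 values were CCPG1, C5AR2, RP1-241P17.4, SYTL1 and PTGES3L-AARSD1. CCPG1 stood at 94.2 and 33.3 TPM in the NB4 libraries, and Kasumi-1 had 4.59 and 52.3 TPM of it. SYTL1 stood at 71.2 and 31.1 TPM, and Kasumi-1 had 15.5 and 83.7 TPM. RP1-241P17.4 stood at 14.4 and 0.201 TPM, and Kasumi-1 had 23.9 and 23.6 TPM. None of these differences between the lines was tested.

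**Figure D5:**
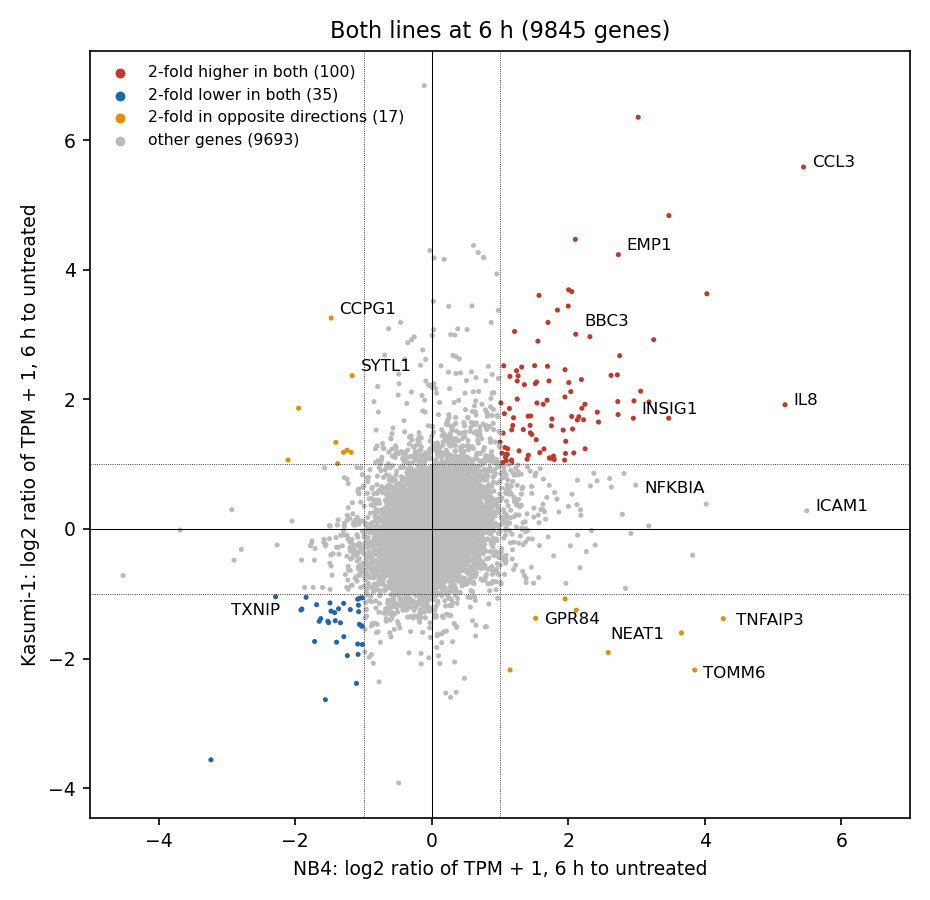
The log2 difference in NB4 at 6 h is plotted against that in Kasumi-1 at 6 h for the 9845 genes at 5 TPM in either library of each line, with dotted lines at 2-fold. Red marks 100 genes higher in both lines, blue 35 lower in both and orange 17 that differed at least 2-fold in opposite directions, TNFAIP3, NEAT1 and TOMM6 among them.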

How the data were processed

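Total RNA of cultured NB4 and Kasumi-1 cells was sequenced, and the authors deposited 1 gene table per library with coverage, FPKM and TPM for each gene, per the file headers. HISAT2, StringTie and hg19 are named in the submitters' processing notes. Tool versions, options and the use of strand were not given in the sources used here. From the deposited TPM, values were summed by gene name, and genes with 5 TPM in either NB4 library and above 0 in both were compared with a pseudocount of 1. The deposited FPKM served as an alternative. Depth was inferred from the ratio of the deposited coverage to FPKM, with 302 bases per pair, since 302 and 151 bases were the commonest products of coverage and gene length. With 1 library per condition no test was made.

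The members of 50 gene lists and the rule for named genes were chosen with earlier results of these data known. The rule named the 20 protein-coding and 3 long noncoding genes with the largest log2 difference each way, and the 5 with the largest TPM difference each way. It also named the first gene and the 4 largest differences of each list, and genes of 10 TPM listed at 0. With Kasumi-1 set beside NB4, it named the 5 genes each way whose NB4 change lay farthest from that in Kasumi-1. The 5 genes each way with the largest smaller change of the 2 lines were named as well. Other genes named in the text were chosen after their values were seen, and a few genes that the rule names are not reported here. Gene types came from GENCODE release 29 and RefSeq, and promoters from RefSeq on GRCh38.p14. Further motifs were searched, that of AP-1 among them, and are not reported here. Python 3.11.15, pandas 2.3.3, numpy 2.4.6, scipy 1.17.1 and matplotlib 3.10.9 were used, and the calling script was tested on simulated data.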

Additional observations from a re-analysis of the deposited data

Results flagged for a closer look

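Genes at least 2-fold higher in 1 line and at least 2-fold lower in the other at 6 h, with 5 TPM reached in each line, are listed here as NB4 minus Kasumi-1 log2 differences, with 1 library per condition, and the difference was not tested. Without that limit in Kasumi-1 there were 8 on the NB4-higher and 11 on the NB4-lower side. On the NB4-higher side were TOMM6 (6.03), TNFAIP3 (5.65), NEAT1 (5.26), SNORD10 (4.49), NFKBIE (3.37), PDE4B (3.32), GPR84 (3.03) and TADA2B (2.90). PDE4B, a cAMP phosphodiesterase gene, was at 14.5 and 33.4 TPM in NB4 and at 44.1 and 8.98 TPM in Kasumi-1. GPR84, a receptor for medium-chain fatty acids, was at 23.6 and 94.1 TPM in NB4 and at 19.96 and 8.92 TPM in Kasumi-1. NEAT1 was at 75.8 and 24.3 TPM in Kasumi-1.

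On the NB4-lower side were CCPG1 (-4.73), C5AR2 (-3.81), SYTL1 (-3.53), RP11-345J4.6 (-3.17), SCARNA9 (-2.74), CTD-2192J16.22 (-2.48), RALB (-2.46), AP000275.65 (-2.39) and SLC7A5P2 (-2.36). C5AR2 was at 1.57 and 8.36 TPM in Kasumi-1. RALB, a small GTPase gene, was at 54.0 and 22.2 TPM in NB4 and at 14.8 and 35.6 TPM in Kasumi-1. TOMM6, SNORD10, SCARNA9, CTD-2192J16.22, AP000275.65 and SLC7A5P2 overlap another gene on the same strand.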

How the results depend on the processing

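No paired analysis was possible because each condition has 1 library, and leaving out a replicate was not possible either. With a pseudocount of 5, 219 genes were at least 2-fold higher and 91 lower, and 70.6% of the calls were higher against 58.1% with a pseudocount of 1. With 20 TPM required the counts were 200 and 97 (67.3% higher), and with FPKM in place of TPM 211 and 137. A fold of 1.5 gave 963 and 891 genes and a fold of 3 gave 139 and 47 (74.7% higher). Genes past 2-fold in both lines with a pseudocount of 5 were 69 higher and 10 lower.

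The median of the chemokine list was 3.77 with a pseudocount of 0.1, 1.52 with 5, 1.94 with 1 TPM required, 4.03 with 20 TPM, 0.92 with no filter and 3.31 with FPKM. Without genes that overlap another on the same strand, an alternative chosen after seeing the data, 286 genes were higher and 200 lower. Values of the named genes, at most 265 per setting, were recomputed under each alternative. Of these values 2745 stayed within 1.5-fold of the main value, 94 moved, and 0 reversed. The moved values came from the pseudocounts of 0.1 (25) and 5 (47) and from FPKM (22). A setting that changes only which genes are kept cannot move a value, so those values could only stay. Of the 133 named genes past 2-fold, 106 kept that call with a pseudocount of 5 and 123 with FPKM, and of 130 such genes 129 kept it with TPM rescaled without mitochondrial and the 10 most abundant genes. Depth limits values near 0.2353 TPM, where the size of a difference depends on the pseudocount, as for CCL2 and TNFRSF9.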
